A study of Mus musculus with 6 samples.

Results

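*Aqp4*, *Kcnj10*, *Gja1*, *Gjb6*, *Mlc1*, *Hepacam* and *Dag1* are 7 genes whose proteins are known for their place in astrocyte endfeet, the processes that cover brain vessels, and in astrocyte junctions. They were picked by name, from the gene symbols of the count tables, and are 7 of 31053 genes listed for prep 1 and 7 of 27998 listed for prep 3. Prep 1 was the cerebral cortex of 3-week-old mice and prep 3 the hippocampus of 5-week-old mice, both from female C57Bl/6J animals without any transgene or treatment. In each preparation the tissue of 3 mice was pooled into 1 suspension, and this suspension was run as 3 technical replicates of droplet-based single-cell RNA sequencing (10x Genomics Chromium). The data therefore held 6 libraries but 1 biological sample per preparation, so that no test between conditions was possible, and every SD given is over technical replicates. Brain region, age, preparation and gene annotation changed together between prep 1 and prep 3 and cannot be told apart.

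Astrocyte endfeet wrap capillaries, arterioles and venules, and move water, ions and small molecules between blood, perivascular space and parenchyma. AQP4 is their water channel, KIR4.1 (*Kcnj10*) their inwardly rectifying potassium channel, and connexin 43 (*Gja1*) and connexin 30 (*Gjb6*) form the gap junctions that couple astrocytes to each other. MLC1 and its partner GlialCAM (*Hepacam*) are membrane proteins of astrocyte-astrocyte contacts involved in volume regulation, and dystroglycan (*Dag1*) is the matrix receptor that links the dystrophin complex, and through it AQP4, to the perivascular basement membrane. The libraries measured RNA in dissociated cells, so they hold no information on where in a cell any of these proteins lies.

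The 6 libraries held 4894 to 6121 barcodes each and 39662203 to 50024850 unique molecular identifiers (UMIs, each standing for 1 captured RNA molecule). After the filters, 13320 barcodes of prep 1 and 14210 of prep 3 remained, and they were clustered without the 7 genes, so that none of them helped to define a class. Barcodes that also occurred in another library of the same preparation numbered 926 in prep 3 and 83 in prep 1. Each was counted once in every library that held it. Results for ependymal-like cells are given with and without such barcodes. Prep 1 held 2732 astrocyte-like cells and prep 3 held 1975, and 12 to 16 of the 16 astrocyte markers were among the marker genes of each of their clusters. Class names were given from marker genes and carry the ending "-like". Ependymal-like cells (211), oligodendrocyte precursor-like cells (OPC-like, 166) and committed oligodendrocyte-like cells (183) formed clusters in prep 3, and none of these formed a cluster of its own in prep 1. The 66 oligodendrocyte-like cells of prep 1 also carried 6 OPC markers. Levels are given in CPM, the UMIs of a gene per 1000000 UMIs of the same cells, with the value of replicates 1, 2 and 3 of each preparation in that order. Levels are compared between classes for 1 gene at a time and not between genes.

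Promoter sequences are shown for 4 members that stand for the patterns described below: the connexin genes *Gja1* and *Gjb6*, both high in astrocyte-like and fibroblast-like cells, and *Kcnj10* and *Dag1*, whose RNA was also high outside astrocytes. Each is the 250 bases before the transcription start of the RefSeq model on GRCm38.p6, 5′ to 3′ on the gene's strand, with every CG in capitals. RefSeq holds 2 starts for *Dag1*, and the one shown is the start of the GENCODE gene.
Gja1, chr10:56377050-56377299, plus strand: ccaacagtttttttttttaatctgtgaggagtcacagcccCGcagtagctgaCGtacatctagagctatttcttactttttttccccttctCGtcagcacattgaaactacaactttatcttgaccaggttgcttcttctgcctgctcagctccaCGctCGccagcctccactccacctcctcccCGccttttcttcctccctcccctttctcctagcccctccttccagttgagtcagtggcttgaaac
Gjb6, chr14:57133612-57133861, minus strand: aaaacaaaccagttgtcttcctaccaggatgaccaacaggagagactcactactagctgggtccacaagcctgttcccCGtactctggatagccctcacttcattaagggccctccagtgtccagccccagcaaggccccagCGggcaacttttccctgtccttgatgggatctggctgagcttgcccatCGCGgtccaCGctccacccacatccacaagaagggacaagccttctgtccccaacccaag
Kcnj10, chr1:172340960-172341209, plus strand: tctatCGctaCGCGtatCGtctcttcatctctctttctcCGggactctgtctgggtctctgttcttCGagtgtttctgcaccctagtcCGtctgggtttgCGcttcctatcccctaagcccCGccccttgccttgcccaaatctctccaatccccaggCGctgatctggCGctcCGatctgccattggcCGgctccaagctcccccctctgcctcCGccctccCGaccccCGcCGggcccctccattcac
Dag1, chr9:108263959-108264208, minus strand: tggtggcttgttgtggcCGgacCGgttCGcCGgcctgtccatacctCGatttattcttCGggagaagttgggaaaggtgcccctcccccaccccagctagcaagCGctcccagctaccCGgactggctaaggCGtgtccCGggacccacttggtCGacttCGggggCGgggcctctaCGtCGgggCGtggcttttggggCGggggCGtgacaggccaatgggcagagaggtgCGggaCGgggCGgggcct
The windows of *Dag1* and *Kcnj10* held 21 and 17 CG, and 16.3% and 23.5% of the 32851 mouse promoters in the RefSeq table held as many or more. The window of the other *Dag1* start held 36 CG, and 2.58% of promoters held as many or more. Those of *Gja1* and *Gjb6* held 6 and 5 CG, and 50.4% and 55.6% of promoters held as many or more. The letters TATAAA, searched on both strands, were in none of these 4 windows and in 12.4% of all promoters.

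In the GENCODE M21 annotation of GRCm38, *Kcnj10* lies on chromosome 1 (172341210 to 172374085), *Hepacam* and *Dag1* on chromosome 9 (37367351 to 37386575 and 108204634 to 108263958), *Gja1* on chromosome 10 (56377330 to 56402513), *Gjb6* on chromosome 14 (57123303 to 57133611), *Mlc1* on chromosome 15 (88955884 to 88979007) and *Aqp4* on chromosome 18 (15389496 to 15410982). No exon of any member overlapped an exon of another gene on either strand.

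The water channel gene *Aqp4* was the member most restricted to astrocyte-like and ependymal-like cells. In astrocyte-like cells it reached 824, 860 and 922 CPM in prep 1 and 1033, 1015 and 1045 CPM in prep 3. Of the other classes with at least 50 cells, none exceeded 17.4 CPM in prep 1, and in prep 3 only ependymal-like cells, at 660 CPM, exceeded 13.5 CPM. Of all *Aqp4* UMIs, 96.7% were in astrocyte-like cells in prep 1 and 91.2% in prep 3, where a further 6.73% were in ependymal-like cells. These shares were taken over kept cells, of which astrocyte-like cells made up 20.6% in prep 1, so they also reflect how many cells of each class were captured.

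Both astrocytic connexin genes were high in astrocyte-like cells. *Gja1* reached 2217, 2225 and 2329 CPM in prep 1 and 2413, 2361 and 2324 CPM in prep 3. The next classes were fibroblast-like cells in prep 1, at 690 CPM, and ependymal-like cells in prep 3, at 445 CPM, and every astrocyte library lay above every library of those classes. *Gjb6* reached 760, 766 and 801 CPM in prep 1 and 503, 491 and 535 CPM in prep 3. In prep 1 the fibroblast-like level of *Gjb6* ranged from 423 to 783 CPM over replicates and overlapped the astrocyte range.

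The members of the MLC1 complex were also found at their highest or second highest levels in astrocyte-like cells. *Mlc1* was at 388, 384 and 387 CPM in prep 1, with no other class of that size above 13.9 CPM. Its level in prep 3 was 570, 556 and 576 CPM, below the ependymal-like cells, whose replicates lay between 717 and 867 CPM. *Hepacam* was at 482, 473 and 476 CPM in prep 1 and at 437, 424 and 420 CPM in prep 3. The next class for *Hepacam* was oligodendrocyte-like in both preparations, with 116 CPM in prep 1 and 216 CPM in prep 3, and its libraries stayed below those of astrocytes.

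*Kcnj10* and *Dag1* were present in astrocyte-like cells but highest elsewhere. *Kcnj10* was at 173, 158 and 148 CPM in astrocyte-like cells of prep 1 and at 152, 141 and 159 CPM in those of prep 3. Oligodendrocyte-like cells held 201 and 214 CPM of it. These ranges overlapped in prep 1 and did not overlap in prep 3, where committed oligodendrocyte-like cells (193 CPM) and ependymal-like cells (183 CPM) were neighbours whose ranges overlapped. *Dag1* was at 183, 175 and 164 CPM in astrocyte-like cells of prep 1 and at 218, 213 and 222 CPM in those of prep 3, below pericyte-like and vascular smooth muscle-like (VSMC-like) cells in both.

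**Figure D1:**
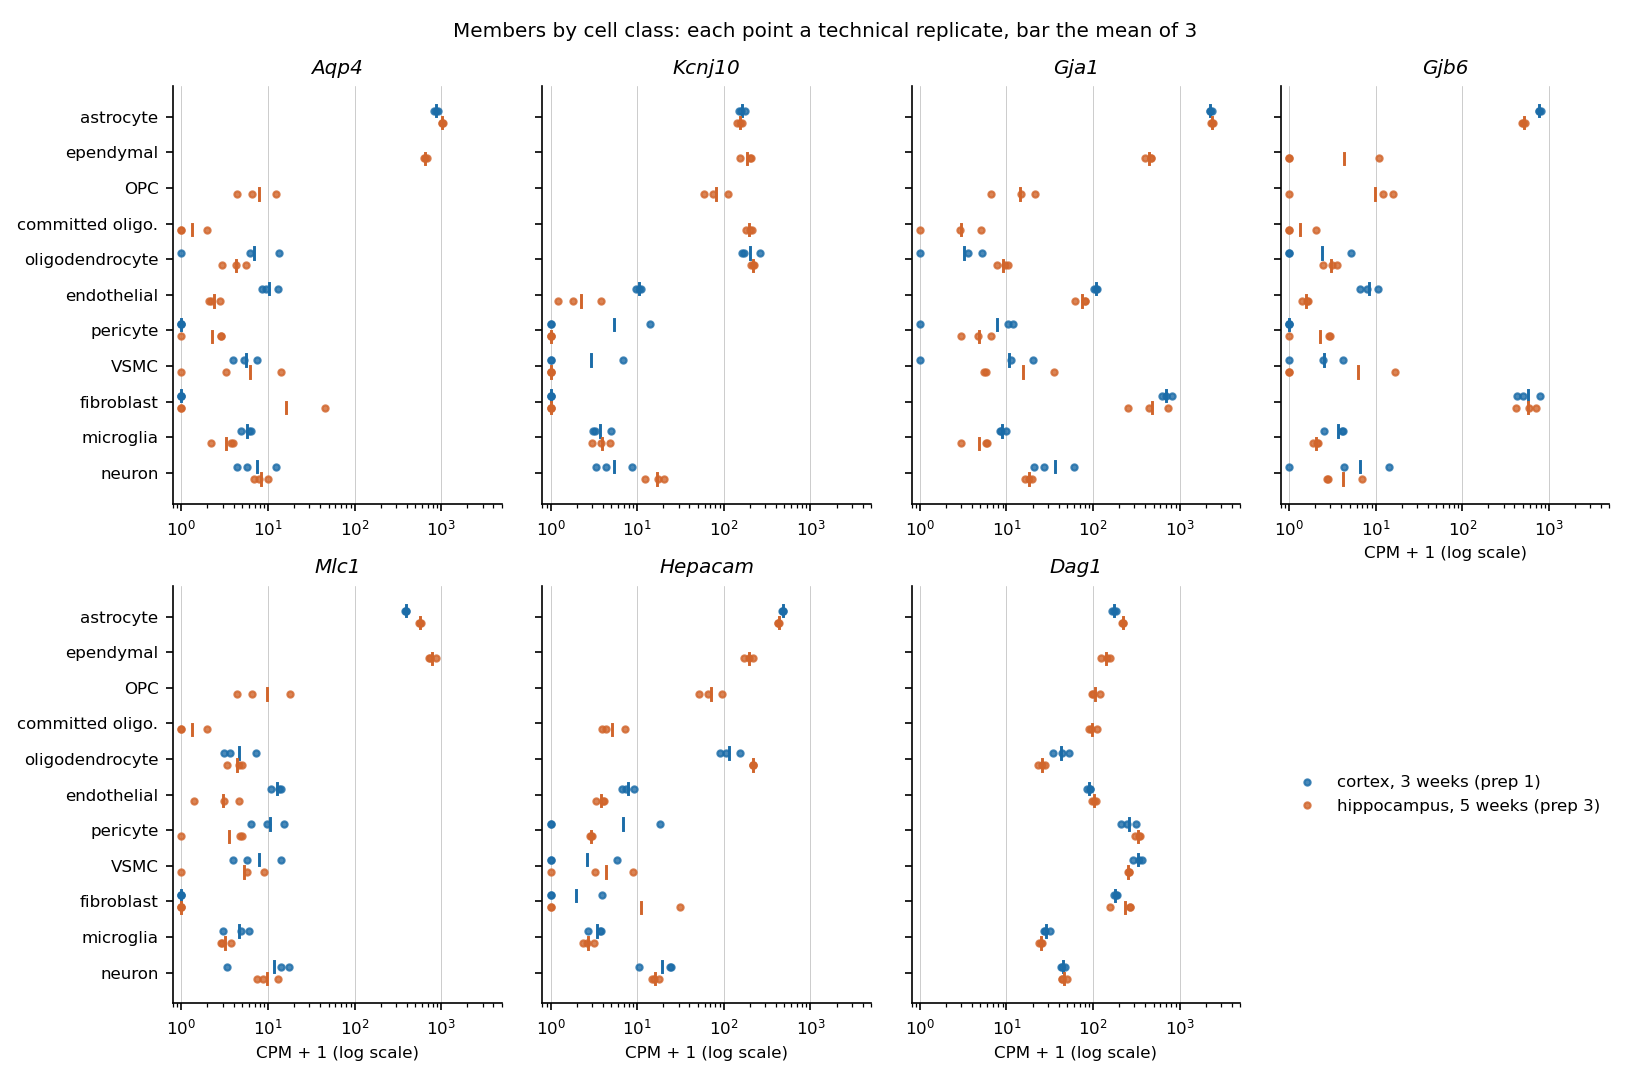
Levels of the 7 genes (CPM + 1, log scale) in the named cell classes, with 1 point per technical replicate and a bar at the mean of 3, blue for prep 1 and orange for prep 3. *Aqp4* stands apart in astrocyte-like cells (824 to 1045 CPM) and ependymal-like cells, *Gjb6* also in fibroblast-like cells, *Kcnj10* and *Hepacam* also in the oligodendrocyte lineage, and *Dag1* is present in every class shown.

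Counted over the members, 4 of 7 in prep 1 (*Aqp4*, *Gja1*, *Mlc1* and *Hepacam*) and 4 of 7 in prep 3 (*Aqp4*, *Gja1*, *Gjb6* and *Hepacam*) had every astrocyte replicate above every replicate of every other named class of at least 50 cells. Over all genes with at least 10 UMIs, 6.33% in prep 1 and 3.52% in prep 3 met the same rule. The 38 fibroblast-like cells of prep 3, too few for the rule, had replicates of *Gjb6* from 411 to 711 CPM, which overlap the astrocyte range. The members were chosen as astrocyte genes, so this count describes how far their name holds in these cells. For *Kcnj10* and *Dag1* the data went against it, with the highest levels in oligodendrocyte-like and mural cells.

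Shares of cells with a UMI gave a like order within each gene. After each cell was thinned to 1000 UMIs, which left out 158 astrocyte-like cells of prep 1 and 128 of prep 3, *Gja1* was seen in 82.3% and 78.4% of astrocyte-like cells, *Aqp4* in 52.4% and 54.6%, *Gjb6* in 50.7% and 37.5%, and *Kcnj10* in 14.2% and 13.5%. Without thinning the shares for *Kcnj10* were 51.6% and 49.3%. Microglia-like cells, a class taken to lack these genes, were used for comparison. Their thinned shares were 0.355% to 0.618% for *Gja1*, 0.222% to 0.388% for *Aqp4* and 0.276% to 0.284% for *Kcnj10*. *Dag1* was higher there, with 2.72% and 2.38% of microglia-like cells carrying it, against 14.8% and 18.1% of astrocyte-like cells. The source of these UMIs in microglia-like cells was not tested. Astrocyte-like cells had median depths of 6503.5 and 6708 UMIs, and microglia-like cells 5459 and 6647.

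To set the other classes against RNA carried over from astrocytes, each member's level was divided by the level that the class's content of 7 astrocyte reference genes (*Slc1a2*, *Ntsr2*, *Acsbg1*, *Slc6a11*, *Agt*, *Aldoc* and *Slc7a10*) would bring along at the ratio found in astrocyte-like cells. A ratio near 1 is what RNA carried over from astrocytes alone would give if it kept its genes in the ratio of astrocyte-like cells. A member was counted in a class where the ratio was at least 2 in every replicate. RNA carried over from other classes is not covered by this ratio. In prep 3 astrocyte-like cells held 24.4% of *Kcnj10*, 34.0% of *Dag1* and 50.2% of *Hepacam* UMIs. For these genes a ratio of at least 2 does not by itself show expression in the class. The ratios depended on the reference genes chosen, and with all 16 astrocyte markers in their place 4 of the calls made over whole classes were lost, all in prep 3: *Gja1* in ependymal-like, endothelial-like and fibroblast-like cells and *Kcnj10* in microglia-like cells. The reference genes summed to 14265 and 13953 CPM in astrocyte-like cells. In microglia-like cells 1 of 7 members counted in prep 1 (*Dag1*, 86.3% of all genes) and 2 of 7 in prep 3 (*Dag1* and *Kcnj10*, 90.0%). Their ratios in prep 1 and prep 3 were 0.457 and 0.462 for *Gja1*, 0.443 and 0.567 for *Gjb6*, and 0.715 and 0.634 for *Aqp4*. They were 0.665 and 1.13 for *Hepacam*, 1.23 and 1.09 for *Mlc1*, 2.24 and 5.3 for *Kcnj10*, and 20.9 and 30.9 for *Dag1*. In prep 3 *Dag1* also counted at lower ratios in ependymal-like (15.5), OPC-like (12.5) and oligodendrocyte-like cells (15.1). It was at 15.2 in clusters with pericyte and endothelial markers together. The ratio in microglia-like cells thus differed between members, and whether the limit of 2 is equally strict for each was not tested.

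Ependymal cells line the ventricles, carry motile cilia, and are known to share several genes with astrocytes. The ependymal-like cells of prep 3 expressed 10 and 8 of the 10 ependymal markers in their 2 clusters. *Mlc1* was at 767 CPM and was the only member whose ependymal replicates all lay above the astrocyte replicates. *Aqp4* was at 692, 652 and 627 CPM, below astrocytes in every replicate. *Kcnj10* was at 183, *Gja1* at 445, *Hepacam* at 197 and *Dag1* at 137 CPM.

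Connexin 30 set ependymal-like cells apart from astrocytes. *Gjb6* had 5 UMIs in all 211 cells, or 3.19 CPM, against 510 CPM in astrocyte-like cells of the same preparation. The ratio to carried-over astrocyte RNA was 0.153 for *Gjb6*, and it was 4.61 for *Gja1*, 11.3 for *Hepacam*, 15.5 for *Dag1*, 15.7 for *Aqp4*, 29.8 for *Kcnj10* and 33.1 for *Mlc1*, so that 6 of 7 members counted as above it. With all 16 astrocyte markers as the reference the ratio of *Gja1* was 1.09, below the limit of 2. The other 5 were 2.67 for *Hepacam*, 3.66 for *Dag1*, 3.71 for *Aqp4*, 7.05 for *Kcnj10* and 7.83 for *Mlc1*. Of the 16 markers, 3 and 2 were themselves among the marker genes of the 2 ependymal-like clusters. This longer reference therefore need not measure carried-over RNA alone. Over all genes 80.4% counted in this class, which makes the count itself close to the background. Leaving out the 45 cells whose barcode occurred in more than 1 library gave 663 CPM for *Aqp4*, 764 for *Mlc1*, 447 for *Gja1* and 3.26 for *Gjb6*. The reference genes were at 570 CPM here, 16 of 16 astrocyte markers were detected, and their summed level was 5736 to 6067 CPM, against 34029 to 34435 CPM in astrocyte-like cells.

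Both depths gave these genes in ependymal-like cells. The 116 deep and 95 shallow ependymal-like cells had 668 and 506 CPM of *Aqp4*, 764 and 830 CPM of *Mlc1*, and 453 and 298 CPM of *Gja1*. The shallow values rested on 39, 64 and 23 UMIs, and replicates of *Aqp4* in shallow cells ranged from 346 to 742 CPM and overlapped the deep range of 621 to 700 CPM.

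In the oligodendrocyte lineage only *Kcnj10*, *Hepacam* and *Dag1* counted above carried-over astrocyte RNA, and not all of them in every stage. *Hepacam* did not count in committed cells. *Dag1* counted in oligodendrocyte-like cells of prep 3, but its replicates there overlapped those of microglia-like cells. KIR4.1 is known in this lineage as a potassium channel of precursors and of myelinating cells. *Kcnj10* was at 86.4 CPM in OPC-like, 193 in committed and 214 in oligodendrocyte-like cells of prep 3. The replicates ran from 58.4 to 111, 178 to 208 and 203 to 221 CPM, so OPC-like cells stood below the other 2 stages and those 2 overlapped. In prep 3, 60.1% of all *Kcnj10* UMIs were in the 1075 oligodendrocyte-like cells and 24.4% in astrocyte-like cells. The oligodendrocyte-like cells made up 7.63% of cells and held 20.2% of the UMIs of all genes. For astrocyte-like cells these shares were 14.0% and 11.7%. In prep 1, with 66 oligodendrocyte-like cells, 80.7% of *Kcnj10* UMIs were in astrocyte-like cells.

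*Hepacam* followed another course over the lineage. It was at 73.7 CPM in OPC-like cells (50.5 to 93.8 over replicates), was at 4.08 CPM in committed cells, where 13 UMIs were counted, and at 217, 218 and 214 CPM in oligodendrocyte-like cells. Thinned to 1000 UMIs, 6.55%, 0.437% and 19.7% of cells carried it. The cells of prep 1 were also classed singly by their own markers, which took in cells from outside that cluster. This gave 22 OPC, 21 committed and 33 oligodendrocyte cells. *Hepacam* in them was at 56.4, 3.24 and 186 CPM, on 14, 1 and 143 UMIs. The OPC replicates were at 103, 13.9 and 59.4 CPM. *Kcnj10* in these 3 stages was at 149, 214 and 211 CPM. The committed stage thus had the lowest *Hepacam* level of the lineage in both preparations, in prep 1 on 1 UMI in 21 cells.

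*Dag1* had its lowest level of the lineage in the mature stage. It was at 107 CPM in OPC-like, 96.5 in committed and 24.4 CPM in oligodendrocyte-like cells of prep 3, the last close to the 24.0 CPM of microglia-like cells. The connexins *Gja1* and *Gjb6* and the channel gene *Aqp4* were at 8.17 CPM or below in oligodendrocyte-like cells of prep 3. Ratios to carried-over astrocyte RNA were 191 for *Kcnj10*, 67.9 for *Hepacam* and 15.1 for *Dag1* in that class, and 0.426 for *Aqp4*. The 3 of 7 members counted for oligodendrocyte-like cells of each preparation compare with 71.0% and 88.5% of all genes. In prep 3, 3 of 7 counted in OPC-like cells (79.7% of all genes) and 2 of 7 in committed cells (79.6%).

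The members that counted in vascular and fibroblast-like classes were *Dag1*, *Gja1* and *Gjb6*. *Dag1* was highest in mural cells, the contractile cells around vessels. In pericyte-like cells it was at 210, 313 and 245 CPM in prep 1 and at 305, 341 and 346 CPM in prep 3. In VSMC-like cells it was at 365, 335 and 289 CPM in prep 1 and at 249, 257 and 260 CPM in prep 3. Pericyte and VSMC ranges overlapped in prep 1, and pericytes stood above VSMC-like cells in prep 3. Endothelial-like cells had 89.4 and 101 CPM and held 26.2% and 17.1% of all *Dag1* UMIs, against 25.3% and 12.6% of the UMIs of all genes. *Dag1* was the 1 member of 7 counted above carried-over astrocyte RNA in pericyte-like cells (64.0% and 75.9% of all genes) and in VSMC-like cells (73.5% and 69.3%). It was also the 1 of 7 in clusters with pericyte and endothelial markers together (77.6% and 80.0%).

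Connexin 43 is also known from endothelium. In endothelial-like cells *Gja1* was at 107 CPM in prep 1 and 73.5 CPM in prep 3. With *Dag1*, 2 of 7 members counted in this class in prep 3 (87.7% of all genes), and *Dag1* alone, 1 of 7, in prep 1 (84.9%), where the ratio of *Gja1* was 1.57 over all clusters and 7.25 without the cluster described below. In prep 3 it was 8.37. With all 16 astrocyte markers as the reference the last 2 ratios were 1.71 and 1.27, below the limit of 2. That longer reference gave 0.0542 for *Aqp4* and 0.0438 for *Gjb6* in endothelial-like cells of prep 3. Whether it measures carried-over RNA alone in this class was not tested. Arterial clusters, named from arterial markers such as *Bmx* and *Gkn3*, had 97.3, 102 and 130 CPM in prep 1 and 85.4, 96.8 and 55.7 CPM in prep 3. Venous clusters had 28.5, 15.1 and 18.5 CPM in prep 1 and 23.8, 36.4 and 30.8 CPM in prep 3. The arterial libraries lay above the venous ones in both preparations without overlap. Venous cells numbered 72 in prep 1, with 21 *Gja1* UMIs, and 255 in prep 3, with 84. Another cluster of prep 1, with 760 cells and 554 *Gja1* UMIs, met 2 venous markers, short of the 3 required. It stayed among the remaining clusters, so the venous groups of the preparations may not be alike. *Dag1* was at 108 CPM in arterial and 91.0 CPM in venous clusters of prep 1 and at 105 and 101 CPM in those of prep 3, with overlapping replicates in both. The remaining endothelial clusters, which met fewer than 3 markers of each segment, had 111 and 86.4 CPM of *Gja1*. The value of prep 1 includes the cluster described below, whose higher *Gja1* level raised it.

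A cluster of 191 endothelial-like cells in prep 1 stood apart by its astrocyte genes. The reference genes summed to 4001 CPM there, 31.4% of the cells were called doublets, and no member reached 2 times the carried-over level in every replicate. *Aqp4* was at 92.4, *Mlc1* at 110 and *Gja1* at 228 CPM there. Without this cluster, which was set aside after its values were seen, endothelial-like cells of prep 1 had 95.2 CPM of *Gja1*, 1.31 of *Aqp4*, 1.78 of *Kcnj10* and 2.25 of *Mlc1*. The ratio of *Gja1* to carried-over astrocyte RNA was then 6.86 to 8.16 over replicates, so that 2 of 7 members (*Gja1* and *Dag1*) counted, against 87.2% of all genes.

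Fibroblast-like cells, the perivascular and meningeal cells of the preparations, carried both connexins. *Gja1* was at 805, 687 and 617 CPM in the 67 cells of prep 1 and at 734, 442 and 254 CPM in the 38 cells of prep 3. *Gjb6* was at 783, 423 and 507 CPM in prep 1 and at 580, 711 and 411 CPM in prep 3. *Dag1* was at 179 CPM in prep 1 (172 to 187 over replicates) and had 79 UMIs in prep 3. *Kcnj10* and *Mlc1* had no UMI in this class in either preparation. *Aqp4* had no UMI in prep 1 and 6 UMIs in prep 3, and *Hepacam* had 1 and 4 UMIs. The reference genes were at 40.0 CPM in prep 1 and 251 CPM in prep 3, so the ratio to carried-over astrocyte RNA was 109 and 9.80 for *Gja1* and 258 and 61.2 for *Gjb6*. Over the replicates of prep 3 these ratios ranged from 2.69 to 112 for *Gja1* and from 18.9 to 862 for *Gjb6*. With all 16 astrocyte markers as the reference they were 4.86 and 2.40 for *Gja1*, which no longer counted in prep 3, and 11.5 and 15.0 for *Gjb6*. Whether this longer reference measures carried-over RNA alone in fibroblast-like cells was not tested. With *Dag1*, 3 of 7 members counted in each preparation, against 66.5% and 49.9% of all genes.

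**Figure D2:**
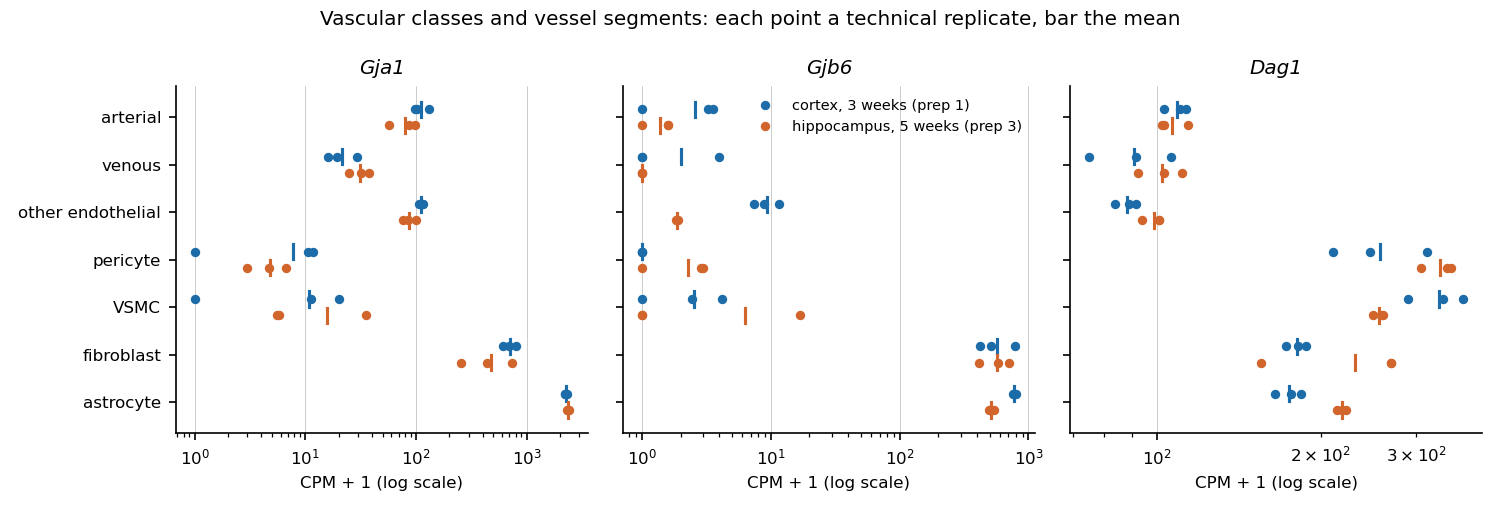
*Gja1*, *Gjb6* and *Dag1* (CPM + 1, log scale) in endothelial segments, mural classes, fibroblast-like and astrocyte-like cells, with 1 point per technical replicate and a bar at the mean of 3. *Gja1* is higher in arterial than in venous clusters (109 against 21.2 CPM in prep 1, the latter on 21 UMIs). Both connexins are high in fibroblast-like cells, and *Dag1* is highest in pericyte-like and VSMC-like cells.

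Hippocampal and cortical astrocyte-like cells were then compared, using deep cells alone. Deep cells are those at or above the median UMI count of their library divided by 3, and 2190 cells of prep 1 and 1586 of prep 3 met this. *Mlc1* was at 376, 373 and 369 CPM in prep 1 and at 565, 550 and 575 CPM in prep 3, 1.51-fold higher (log2 0.60, 95% interval for counting error 0.55 to 0.64). *Gjb6* was at 761, 773 and 811 CPM in prep 1 and at 511, 501 and 541 CPM in prep 3, which is 1.51-fold lower (log2 −0.59, −0.63 to −0.55). The libraries of the 2 preparations were apart for both genes.

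Smaller differences were seen for the other members. *Aqp4* was at 821, 860 and 917 CPM in prep 1 and 1044, 1027 and 1059 CPM in prep 3, 1.21-fold higher (log2 0.27, 0.24 to 0.31). *Dag1* was at 186, 177 and 165 CPM against 225, 216 and 226 CPM, 1.26-fold higher. *Hepacam* (log2 −0.16) and *Gja1* (log2 0.08) differed by less. *Kcnj10* had overlapping libraries, with 174, 159 and 148 CPM against 151, 141 and 161 CPM. By the 1.5-fold rule 1 of 7 members was higher (19.3% of 14372 genes) and 1 of 7 lower (10.7%) in prep 3, and 6 of 7 had non-overlapping libraries, against 49.9% of all genes. Since replicates here were technical, non-overlap says nothing of differences between mice.

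The median of all genes in this comparison was log2 0.11 and that of the members 0.08. Relative to the median of all genes the direction of *Gja1* turned to log2 −0.03, and no other member changed direction. Both 1.51-fold values lay at the 1.5-fold threshold. In the largest astrocyte cluster of each preparation alone, an alternative added after the data were seen, *Mlc1* was at log2 0.63, *Gjb6* at −0.48 and *Aqp4* at 0.38.

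**Figure D3:**
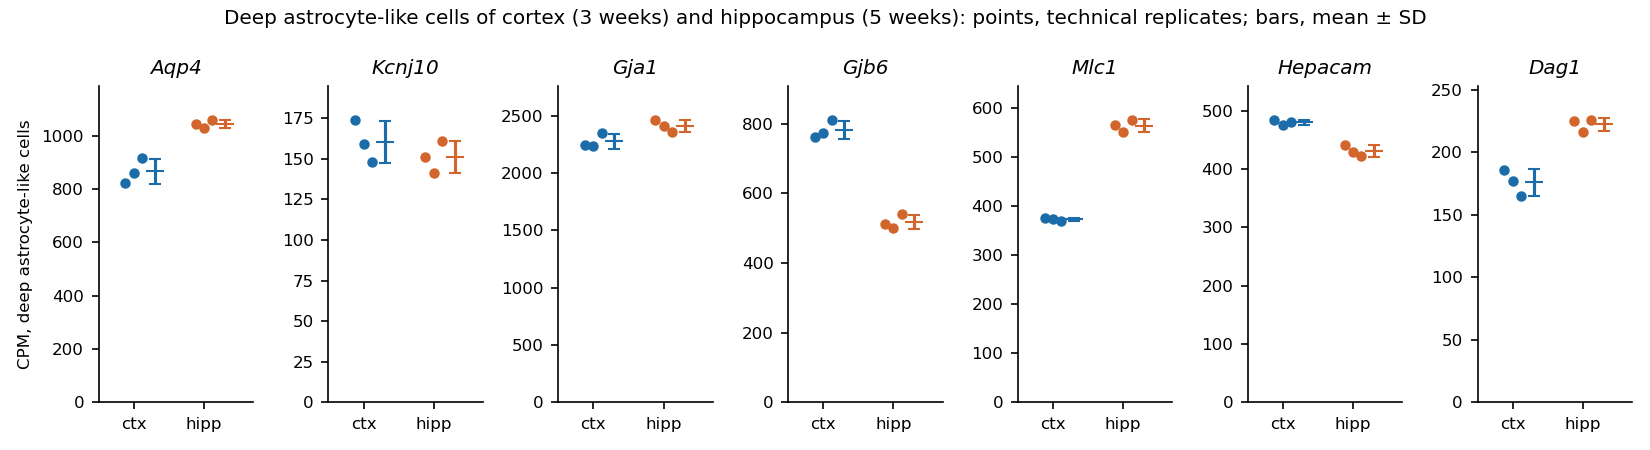
Level (CPM, linear axes from 0) of each member in deep astrocyte-like cells of cortex (ctx, prep 1) and hippocampus (hipp, prep 3), with 1 point per technical replicate and the mean ± SD beside them. *Mlc1* is higher and *Gjb6* lower in hippocampus by 1.51-fold each, and the points of *Kcnj10* overlap.

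Astrocyte-like clusters within a preparation differed in these genes. In prep 3 the largest cluster (1286 cells) had 1163 CPM of *Aqp4*, 2722 of *Gja1*, 584 of *Gjb6* and 147 of *Kcnj10*. A cluster of 100 cells, led by *Fabp7*, *Tnc*, *Hopx* and *Frzb* and still carrying 14 of 16 astrocyte markers, had 200, 262 and 327 CPM of *Aqp4*, 567, 639 and 811 of *Gja1*, and 86.9, 88.4 and 131 of *Gjb6*. Its *Mlc1* was at 649 CPM and its *Kcnj10* at 229 CPM (185 to 262 over replicates), against 565 and 147 CPM in the largest cluster. Thus *Aqp4* and both connexins were lower in these cells, and *Kcnj10* was higher with no overlap of replicates. In these cells 20.0% were called doublets.

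The last comparison was between shallow and deep astrocyte-like cells of the same libraries. Shallow cells, those below the split, numbered 542 in prep 1 and 389 in prep 3, with median depths of 1261 and 1260 UMIs, and 272 and 136 cells lay within 20% of the split. Their summed astrocyte markers were close to those of deep cells, at 36570 against 34857 CPM in prep 1 and 31226 against 34293 CPM in prep 3. The median mitochondrial share was 15.9% against 11.5% in prep 1 and 10.8% against 8.25% in prep 3, and its part in the differences was not tested.

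*Mlc1* was higher in shallow cells of prep 1. There it was at 688, 699 and 771 CPM in shallow and 376, 373 and 369 CPM in deep cells, 1.93-fold higher (log2 0.95, 0.81 to 1.08). In prep 3 it was at 696, 693 and 587 CPM against 565, 550 and 575 CPM (log2 0.24, 0.07 to 0.39), and this value turned to −0.20 with a mitochondrial limit of 10% and to −0.09 with the split by cluster. Thinned to 500 UMIs, 29.8% of shallow and 17.7% of deep cells of prep 1 carried an *Mlc1* UMI, against 53.3% and 87.9% before thinning.

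The connexins were lower in shallow cells, more so in prep 3. *Gja1* was at 1539, 1835 and 1777 CPM in shallow and 2244, 2238 and 2354 CPM in deep cells of prep 1 (log2 −0.41). In prep 3 it was at 1142, 1059 and 1181 CPM against 2464, 2415 and 2362 CPM, which is 2.15-fold lower (log2 −1.10, −1.23 to −0.98). *Gjb6* had log2 values of −0.31 in prep 1 (−0.49 to −0.05 over replicates) and −0.79 in prep 3. *Dag1* had −0.50 and −1.34, the latter on 44 UMIs in shallow cells with replicates at 45.7, 139 and 76.0 CPM.

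*Aqp4* moved little in prep 1, at 922, 866 and 1027 CPM in shallow and 821, 860 and 917 CPM in deep cells, with overlapping replicates. In prep 3 it was at 742, 715 and 601 CPM in shallow and 1044, 1027 and 1059 CPM in deep cells, 1.51-fold lower. *Kcnj10* overlapped in both preparations (log2 −0.11 and −0.22), and *Hepacam* was at log2 −0.23 and −0.36. By the 1.5-fold rule, 1 of 7 members was higher and 0 of 7 lower in shallow cells of prep 1, where 8.33% of 13671 genes were higher and 46.1% lower. In prep 3 it was 0 of 7 higher and 4 of 7 lower (*Aqp4*, *Gja1*, *Gjb6* and *Dag1*), against 22.4% and 34.4% of 13504 genes. *Aqp4* lay at the threshold, and its log2 value of −0.59 became −0.45 with a split at 3000 UMIs. It also stayed short of 1.5-fold without integration and without replicate 3, and each of these left 3 of 7. With the split by cluster 6 of 7 were lower, among them *Hepacam* (−0.64) and *Kcnj10* (−0.62). The shares of all genes past 1.5-fold include genes with few UMIs in shallow cells, which counting error alone can bring past that limit. In simulated data 14.4% of unchanged genes were called in prep 1 and 15.8% in prep 3. Genes with few UMIs over shallow and deep cells together were left out there. Genes with few UMIs in shallow cells alone were not. The shares of all genes are therefore not a like background for the counts of members. Shallow and deep replicates did not overlap for 5 of 7 members in prep 1 (49.6% of all genes) and for 6 of 7 in prep 3 (45.0%).

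The median of all genes was log2 −0.24 in prep 1 and 0.05 in prep 3, and that of the members −0.23 and −0.59. Relative to the median of prep 1, *Aqp4* was at 0.36, *Gja1* at −0.18, *Gjb6* at −0.07 and *Mlc1* at 1.19. With a mitochondrial limit of 10%, *Aqp4* in prep 1 turned from log2 0.12 to −0.55, and 4 members in place of 0 fell below the 1.5-fold threshold there.

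Finer classes of depth were used to describe the levels without a split. In prep 1 *Mlc1* was at 877 CPM in the 158 cells with 500 to 1000 UMIs and at 363 CPM in the 947 cells with 4000 to 8000 UMIs. No such course was seen in prep 3, with 442 CPM in the shallowest class, 715 in the next and 525 CPM at 4000 to 8000 UMIs. *Gja1* and *Gjb6* were highest at 4000 to 8000 UMIs in both preparations, at 2492 and 884 CPM in prep 1 and 2731 and 631 CPM in prep 3. *Aqp4* was highest above 16000 UMIs, at 1210 and 1415 CPM, where 37.3% and 18.8% of the 75 and 69 cells were called doublets.

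**Figure D4:**
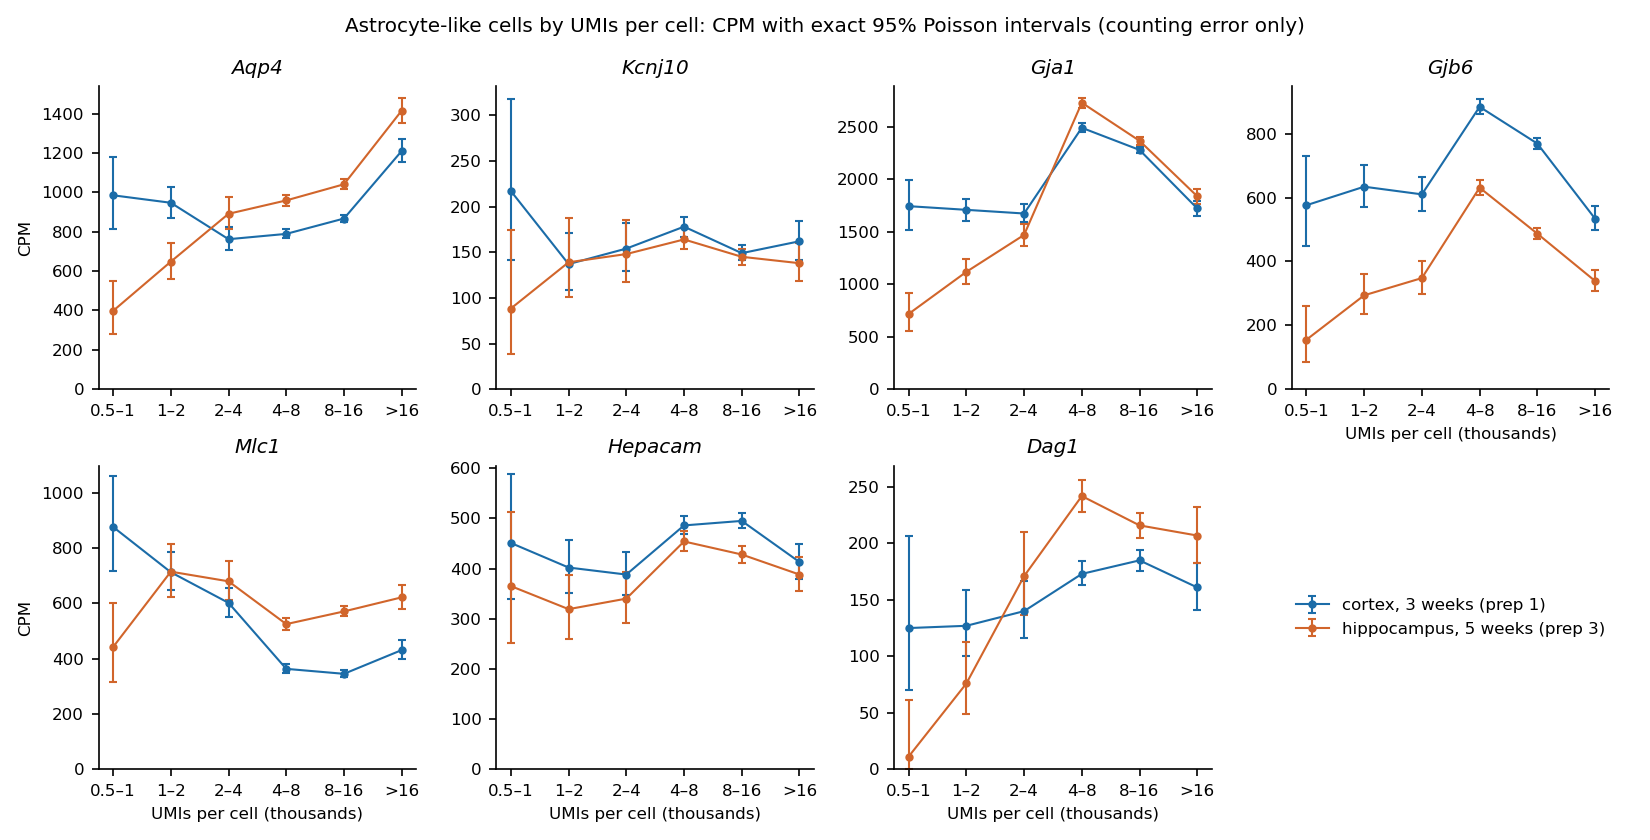
Level (CPM) of each member in astrocyte-like cells grouped by UMIs per cell, with exact 95% Poisson intervals that cover counting error only, blue for prep 1 and orange for prep 3. *Mlc1* is lower in deeper cells of prep 1 (877 to 363 CPM), and *Gja1* and *Gjb6* peak at 4000 to 8000 UMIs in both preparations.

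Over the classes of both preparations, the members were compared in pairs. The Pearson correlation of log2(CPM + 1) over 24 class points (classes of at least 50 cells, of 6 libraries that share preparation and depth, so given as a description) was 0.95 for *Aqp4* and *Mlc1*, 0.85 for *Hepacam* and *Kcnj10*, and 0.84 for *Gja1* and *Gjb6*. Pairs across these were next, with 0.77 for *Aqp4* and *Hepacam*, 0.74 for *Hepacam* and *Mlc1*, and 0.73 for *Aqp4* and *Gja1*. Some pairs were far lower, such as *Gjb6* and *Kcnj10* at 0.18. *Dag1* ranged from −0.08 to 0.35 with the other members. Among 18278 genes, those most like *Aqp4* were *Slc25a18* (0.964), *Mlc1* (0.95) and *Fam181a* (0.940). The first for *Kcnj10* was *Cmtm5* (0.917), followed by *Ttyh1* (0.915) and *Pcdh10* (0.904). For *Gja1* they were *Mt2* (0.905), *Slc4a4* (0.894) and *Cyp2d22* (0.893), and for *Gjb6* they were *F3* (0.920), *Ranbp3l* (0.918) and *Slc4a4* (0.909). After *Aqp4*, *Mlc1* was most like *Slc25a18* (0.939) and *Fam181a* (0.925). *Hepacam* was most like *Dab1* (0.935), *Fbxo2* (0.925) and *Tmem229a* (0.918), and *Dag1* was most like *Farp1* (0.937), *Lrig1* (0.922) and *Nr1d1* (0.918).

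Of 54 further genes of endfeet and junctions, listed by function, 51 had at least 10 UMIs in prep 1 and 53 in prep 3, and 14 and 10 of them were highest in astrocyte-like cells, against 12.4% and 5.45% of all genes. In 11 and 10 of these cases every astrocyte replicate lay above those of the next class, against 6.82% and 3.22% of all genes.

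Of the 16 genes of the dystrophin-associated complex and its glycosylation, 2 were highest in astrocyte-like cells in prep 1 and 1 in prep 3. *Dtna*, which encodes alpha-dystrobrevin, was the one found in both, with 519, 510 and 478 CPM in prep 1 and 351, 324 and 319 CPM in prep 3. The second, *Pomt1*, was at 17.8 CPM in prep 1 and overlapped the next class.

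Of the dystroglycan ligands, *Lama1*, a laminin chain, was at 179 and 257 CPM in fibroblast-like cells and at 6.36 CPM or below in all other classes. Of the ligands in the list, 4 were highest in pericyte-like cells in prep 1 and 2 in prep 3, the classes in which *Dag1* itself was also high.

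Of the 12 channels and pumps, 6 were highest in astrocyte-like cells in prep 1 and 5 in prep 3. *Kcnj16*, the KIR5.1 subunit that pairs with KIR4.1, was at 62.1 and 92.8 CPM in astrocytes. Ependymal-like cells came next in prep 3, at 54.3 CPM. The potassium channel gene *Kcnk1* was at 872, 976 and 1087 CPM in prep 1 and 417, 432 and 410 CPM in prep 3. *Atp1b2*, a sodium pump subunit, was at 1514 and 1306 CPM, the bicarbonate cotransporter gene *Slc4a4* at 999 and 1493 CPM, and the aquaglyceroporin gene *Aqp9* at 28.0 and 27.9 CPM. *Lrrc8a*, a volume-regulated anion channel subunit, was at 115 CPM in prep 1 and overlapped endothelial-like cells.

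Among 8 scaffold and membrane linker genes, 5 were highest in astrocyte-like cells in prep 1 and 3 in prep 3. *Gpr37l1*, a receptor known to bind GlialCAM, was at 2470 and 2227 CPM, *Cldn10*, a claudin, at 1469 and 1457 CPM, and *Ctnnd2*, a delta-catenin, at 179 and 158 CPM. *Ezr*, encoding ezrin of fine astrocyte processes, was highest in astrocytes in prep 1, at 375 CPM, and in prep 3 was at 491 CPM in ependymal-like against 180 CPM in astrocyte-like cells. *Cdh2* was at 252 CPM in prep 1 and overlapped pericyte-like cells.

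No connexin or pannexin of the list was highest in astrocyte-like cells (0 of 8 in prep 1 and 0 of 10 in prep 3). *Gjb2*, connexin 26, was at 974, 544 and 964 CPM in fibroblast-like cells of prep 1 and 580, 584 and 501 CPM in those of prep 3, against 20.9 and 20.6 CPM in astrocyte-like cells. Fibroblast-like cells therefore held *Gja1*, *Gjb6* and *Gjb2*. The connexin genes known from oligodendrocytes were high in that lineage. *Gjb1* was at 159 and 327 CPM in oligodendrocyte-like cells. *Gjc3* was at 858 CPM in oligodendrocyte-like cells of prep 1, and in prep 3 it was highest in committed cells, at 1059, 1109 and 1227 CPM. The mural connexin genes *Gja4* and *Gjc1*, named after their values were seen, were at 514 and 1067 CPM in pericyte-like cells of prep 1 and 377 and 707 CPM in those of prep 3.

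**Figure D5:**
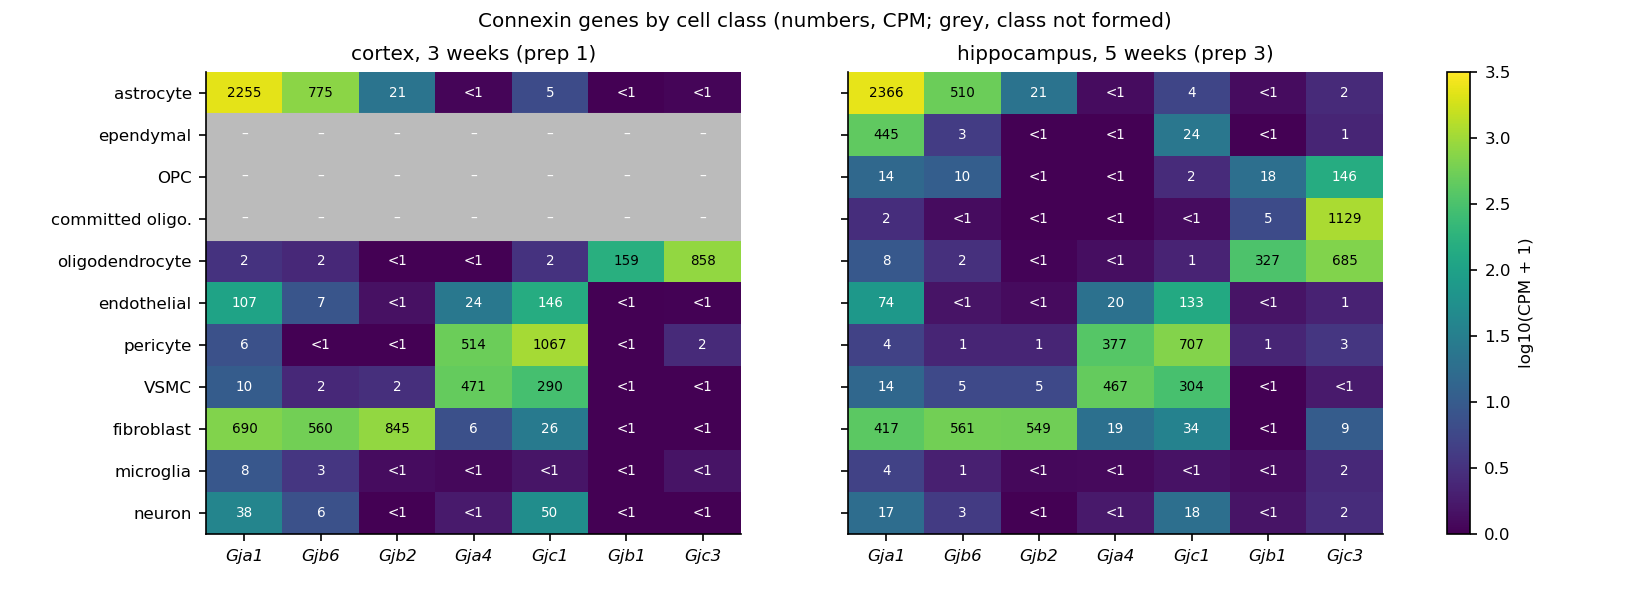
CPM of 7 connexin genes (columns) in the cell classes (rows) of prep 1 and prep 3, with the colour on a log scale and grey for a class that formed no cluster. *Gja1* and *Gjb6* mark astrocyte-like and fibroblast-like cells, *Gja1* also ependymal-like cells (445 CPM), *Gjb1* and *Gjc3* the oligodendrocyte lineage, and *Gja4* and *Gjc1* mural cells.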

How the data were processed

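Single-cell RNA sequencing of prep 1 (cortex) and prep 3 (hippocampus) was analysed; prep 2 was not analysed here. The authors aligned reads to mm10 and deposited raw UMI counts per gene and barcode (Cell Ranger 5.0.1 per the submitters' processing notes), and the file headers name software 3.0.1 and 3.1.0. White matter was scraped off, tissue was digested with dispase II, papain and DNase, myelin was removed with Percoll, and no cell sort was used. Free RNA and astrocyte pieces can therefore add UMIs of these genes to other cells.

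The deposited counts held 5834, 6121 and 5982 barcodes in prep 1 and 5232, 5210 and 4894 in prep 3, with at least 500 UMIs each. Barcodes were kept where 250 to 6000 genes were found and mitochondrial UMIs stayed below 25%, or 15% in the vascular clustering. They were log-normalised to 10000 and integrated with 2000 variable genes and 30 dimensions at resolution 0.5 in Seurat 5.3.0 (R 4.3.3). Members and listed genes were left out of the variable genes. Pearson-residual scaling and SingleR were not used. Clusters were named from marker lists (at least 3 markers, each in 20% of cells and 2-fold above other clusters), so class sizes may differ from the study's. Doublets were called with scanpy 1.11.5 at 0.8% per 1000 barcodes, and the 762 and 551 called cells that passed the filters were kept.

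UMIs were summed per library and class with Python 3.11.15, numpy 2.4.6, pandas 2.3.3 and scipy 1.17.1. Levels have exact Poisson and shares exact Clopper-Pearson 95% intervals, which cover counting error only. Features with at least 10 UMIs entered comparisons, a difference of at least 1.5-fold was called, and no test was made because technical replicates of 1 suspension are not biological replicates. The scripts were tested on simulated data. Named genes were the 7 members, listed genes highest in astrocyte-like cells or at least 5-fold higher in 1 vascular, ependymal or oligodendrocyte class, and the 3 genes most like each member. Members, lists and rules were chosen with earlier results of these data known. Promoters came from RefSeq (GRCm38.p6), where 6 of the 7 members had an entry. Some listed genes are not reported here.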

Additional observations from a re-analysis of the deposited data

Results flagged for a closer look

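In shallow against deep astrocyte-like cells, *Aqp4* had a log2 ratio of −0.59 in the hippocampus, with all 3 replicates below 0, and of 0.12 in the cortex, with all 3 replicates above 0. The difference between the preparations was not tested. The cortical value turned to −0.55 with a mitochondrial limit of 10%, to −0.06 with the split at 3000 UMIs and to −0.16 with the split by cluster.

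The barcodes left out for holding under 250 genes carried UMIs of the 7 members, 283 in the 3862 cortical and 30 in the 353 hippocampal barcodes, above the limit of 3 UMIs that a count of 0 allows. In the cortex this was 0.542 CPM (*Kcnj10*) to 3.54 CPM (*Gja1*), with the astrocyte reference genes at 66.5 CPM. In the hippocampus it was 0.902 CPM (*Gjb6*) to 9.02 CPM (*Mlc1*), with the reference genes at 117 CPM.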

How the results depend on the processing

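No paired analysis was possible because the replicate numbers of the preparations are shared in name alone and no test was made. Shallow and deep cells of the same library were set side by side as a description. Of the counts and summary values, 210 kept their value within 1.5 times or 1 SD under the alternatives and 18 did not; of the values of single genes, 695 moved by less than 1 SD and 131 by more. No called value changed sign. The 1 member higher by 1.5-fold in hippocampal astrocytes (*Mlc1*) became 0 at resolution 0.2, with members kept in the clustering, with barcodes of more than 1 library left out, with classes from each cell's own markers, with the median log ratio set to 0 and with all astrocytes. The 1 member lower (*Gjb6*) became 0 with a mitochondrial limit of 10%, with members kept in the clustering, with barcodes of more than 1 library left out and in the largest cluster of each preparation, which was added after seeing the data. Leaving out 1 replicate gave 0 to 1 for both: 0 for *Mlc1* without hippocampal replicate 3, and 0 for *Gjb6* without cortical replicate 3 or hippocampal replicate 1 or 2. Over all 20 settings the log2 values stayed between 0.48 and 0.68 for *Mlc1*, −0.70 and −0.48 for *Gjb6*, and 0.16 and 0.43 for *Aqp4*.

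In cortical shallow against deep astrocytes, the count of members lower by 1.5-fold, 0 as reported, was 4 with a mitochondrial limit of 10% and 3 with the split by cluster, and 0 to 1 with 1 replicate left out (1 without replicate 3). The 7446 genes past 1.5-fold there became 4878 with a split at 1500 UMIs. The cause of these changes was not tested. In the hippocampus the 4 members lower by 1.5-fold became 3 without integration, with a split at 3000 UMIs and without replicate 3, and 6 with the split by cluster. The members counted above carried-over astrocyte RNA, summed over the other classes except microglia-like and mixed clusters, went from 21 to 18 in the hippocampus with all 16 astrocyte markers as the reference and stayed at 9 in the cortex. Low counts limit several values, such as *Dag1* in shallow hippocampal cells, on 44 UMIs.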
